A study of Mus musculus with 12 samples.

Results

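The 10 genes described here that are best known from fat cells were followed across 12 RNA-seq libraries from flow-sorted thymic epithelial cells (TECs) of mice, the stroma on which T cells mature and are selected. The 10 members are Adipoq, Retn, Cfd, Rbp4, Cidec, Plin1, Fabp4, Lpl, Pparg and Car3, out of 27179 genes counted in every library. They were picked by name because several of them stood out when cortical TECs (cTECs) without HOIL were compared with control cTECs. Their levels in that comparison are therefore given as a description with no test, and the members were tested only for the contrast between the medullary groups. The fit behind those tests took its spread from all 12 libraries, the cTECs among them. The members were picked with earlier results of these data known, so these tests may not be independent of the choice.

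The gene Rbck1 encodes HOIL-1, part of the complex that joins ubiquitin into linear chains. All animals were C57BL/6 mice and all carried the floxed Hoil alleles (Hoillox/lox). The HOIL-deficient groups also carried 1 Foxn1cre transgene allele (Foxn1creT/+), so that Cre was under Foxn1, a gene of the thymic epithelium, and the controls had no Cre allele (Foxn1cre+/+). No treatment and no age is given in the labels. Each genotype gave cTECs (EpCAM+ MHC class II+ Ly51+ UEA1-) and mTEChi, medullary TECs with high MHC class II (Ly51- UEA1+), both sorted as CD45- TER119- CD31- cells, with 3 libraries in each of the 4 groups. Replicate 3 of both HOIL-deficient groups came from a female and the other 10 libraries from males. The labels do not say whether replicates are separate animals, so that the p-values refer to the spread among these libraries, which may be technical.

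Libraries held 7941217 to 14274333 counts. Rbck1 was at 183 to 236 CPM, counts scaled to 1 common library total, in control cTECs and 22.0 to 33.0 in HOIL-deficient cTECs, and at 108 to 128 CPM in control mTEChi and 10.9 to 23.3 in HOIL-deficient mTEChi. Defining genes of the sorted cells were present: the thymoproteasome gene Psmb11 averaged 3785 CPM in control and 1578 in HOIL-deficient cTECs, and Aire averaged 770.5 CPM in control and 928 in HOIL-deficient mTEChi but under 1 CPM in both cTEC groups. Control mTEChi had more mitochondrially encoded RNA (3.19 to 8.93% of counts, highest in replicate 1) than HOIL-deficient mTEChi (1.71 to 1.91%) or either cTEC group (0.861 to 1.86%).

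White fat cells store fatty acids as triglyceride in a single large droplet and release them on demand. The nuclear receptor PPAR-gamma, which binds DNA as a partner of RXR, and the C/EBP factors switch on the genes of this programme. Fat cells also secrete hormones such as adiponectin and leptin. In the thymus, adipocytes accumulate around and within the organ with age. Several of the genes are not restricted to fat: Fabp4 is also found in capillary endothelium and macrophages, Lpl and Pparg in many cell types, and Rbp4 foremost in hepatocytes. Medullary TECs with high MHC class II are known for transcribing genes of many other tissues at low levels, in part through Aire.

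The 250 bases upstream of the start are shown for the 4 members on which the description turns. These are Adipoq and Cidec, whose ratio varied least among the pairs compared. The others are Cfd, the member with the largest change in mTEChi, and Pparg, the regulator among them. The sequences are from RefSeq (GRCm38.p6, the assembly named mm10), 5′ to 3′ on the strand of the gene, and capitals mark matches on either strand to the C/EBP core TTGCNNAA or to CCAAT. A match is a run of letters and not a binding site.
Adipoq, chr16:23146286-23146535, plus strand: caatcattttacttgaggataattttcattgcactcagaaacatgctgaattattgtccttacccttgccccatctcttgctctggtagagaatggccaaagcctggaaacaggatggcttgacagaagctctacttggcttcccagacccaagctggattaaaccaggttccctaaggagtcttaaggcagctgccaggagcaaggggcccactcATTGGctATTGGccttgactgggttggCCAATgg
Cidec, upstream start, chr6:113435761-113436010, minus strand: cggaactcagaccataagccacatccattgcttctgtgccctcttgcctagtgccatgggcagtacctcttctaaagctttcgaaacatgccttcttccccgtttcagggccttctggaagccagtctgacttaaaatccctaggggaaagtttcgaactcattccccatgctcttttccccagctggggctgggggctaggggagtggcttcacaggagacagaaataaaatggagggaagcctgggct
Cfd, chr10:79890603-79890852, plus strand: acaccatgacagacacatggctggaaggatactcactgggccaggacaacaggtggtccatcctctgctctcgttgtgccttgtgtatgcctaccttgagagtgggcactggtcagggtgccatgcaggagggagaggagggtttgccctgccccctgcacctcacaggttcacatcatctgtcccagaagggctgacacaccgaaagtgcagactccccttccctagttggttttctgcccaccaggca
Pparg, downstream start, chr6:115421816-115422065, plus strand: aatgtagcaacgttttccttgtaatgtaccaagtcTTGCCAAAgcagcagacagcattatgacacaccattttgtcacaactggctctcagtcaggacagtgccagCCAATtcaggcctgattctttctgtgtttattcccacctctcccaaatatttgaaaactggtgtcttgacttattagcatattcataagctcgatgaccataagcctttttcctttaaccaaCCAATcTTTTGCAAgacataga
Adipoq held 3 CCAAT matches within the last 34 bases before its start. The printed window of Pparg held 2 C/EBP core and 2 CCAAT matches, and the printed windows of Cidec and Cfd held none of the motifs searched. The other Cidec window, which is not printed, held 1 C/EBP core match. The other Pparg windows, also not printed, held no C/EBP core match, and 1 of them held 1 CCAAT match. RefSeq windows matched 7 of the 10 members, with 11 starts, and Fabp4, Lpl and Car3 were without one. The C/EBP core was in 4 of these 11 windows against 9.56% of 32851 windows of all genes, and CCAAT in 4 of 11 against 33.8%. The direct repeat DR1 that PPAR and RXR bind, AGGTCA repeated after a spacer of 1 base, was in none of the 11 and in 0.0335% of all windows, a single AGGTCA, which also lies within that repeat, in 2 of 11 against 14%, and TATAAA in 2 of 11 against 12.4%. Gene counts add up all starts of a gene, so the counts do not tell which Pparg start was used.

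In control cTECs 8 of the 10 genes averaged under 2 CPM, and control mTEChi carried more of all members but Lpl. In HOIL-deficient cTECs, the contrast that chose them, 8 members lay above every control cTEC library, as did 15.9% of all tested genes. In HOIL-deficient mTEChi, Cfd and Lpl were called higher, Rbp4 was called lower, and the other 7 did not pass the test. Of all tested genes, 11.3% were called higher and 8.59% lower there. The calls of Lpl and Rbp4 were lost in 9 and 6 of 13 alternative analyses. The genes are taken up by the roles of their products.

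Among the hormones and other secreted proteins, Adipoq (Entrez 11450, chromosome 16, 23146536 to 23157968) encodes adiponectin. Adipoq was at 0, 0.756 and 0 CPM in replicates 1 to 3 of control cTECs and at 15.9, 10.2 and 25.0 CPM in HOIL-deficient cTECs. All reads of control cTECs, 6 in number, came from replicate 2. Control mTEChi had 11.2, 21.0 and 17.9 CPM and HOIL-deficient mTEChi 37.7, 18.0 and 32.1. The 2 mTEChi groups overlapped, since replicate 2 without HOIL lay below replicate 2 of the controls. The difference did not pass the test, with a log2 fold change of 0.76, a standard error (SE) of 0.487 and an adjusted p of 0.30 by edgeR's quasi-likelihood test. Here and below the SE is approximate, the fold change over the root of the test's F value. HOIL-deficient cTECs, at 17.0 ± 7.43 CPM (SD, n = 3), and control mTEChi, at 16.7 ± 5.03 CPM, were at much the same level of this gene.

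Cfd (Entrez 11537, chromosome 10, 79890853 to 79892655) encodes adipsin, the complement factor D protease, which cuts factor B in the alternative pathway. Cfd was at 0.368, 0 and 0 CPM in control cTECs and at 68.2, 138 and 127 CPM in HOIL-deficient cTECs. In mTEChi it was at 21.7, 10.7 and 6.94 CPM in controls and at 161, 23.4 and 128 CPM without HOIL. The mTEChi groups did not overlap, although replicate 2 without HOIL, at 23.4 CPM, lay just above the highest control. Cfd rose in HOIL-deficient mTEChi by a log2 change of 2.90 (SE 0.627, adjusted p = 0.0068, edgeR), and its p stayed under the threshold in all 13 alternative analyses, with adjusted p-values from 0.0018 to 0.035. Without control replicate 1 its log2 change was 3.53.

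Retn (Entrez 57264, chromosome 8, 3655770 to 3659818) encodes the hormone resistin. It had 1 read in all control cTEC libraries together, and was at 5.09, 6.35 and 2.94 CPM in HOIL-deficient cTECs. In mTEChi it was at 17.1, 11.6 and 11.2 CPM in controls and 18.2, 16.4 and 16.6 CPM without HOIL. The mTEChi ranges overlapped through control replicate 1, and the log2 change of 0.28 (SE 0.372, adjusted p = 0.64, edgeR) did not pass.

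Rbp4 (Entrez 19662, chromosome 19, 38116620 to 38125321) encodes the carrier of retinol in plasma. It also had 1 read in all of control cTECs and was at 4.50, 2.05 and 0.905 CPM in HOIL-deficient cTECs. It is the member that went the other way in the medulla: control mTEChi were at 14.5, 16.8 and 19.9 CPM and HOIL-deficient mTEChi at 9.37, 2.34 and 4.13, with no overlap. Rbp4 fell by 1.75 in log2 units (SE 0.577, adjusted p = 0.046, edgeR), and by 2.45 without HOIL-deficient replicate 1. That call was lost in 6 of 13 alternative analyses, when any control mTEChi library, HOIL-deficient replicate 2 or 3, or both females were left out, with adjusted p-values up to 0.15.

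Of the droplet proteins, Cidec (Entrez 14311, chromosome 6, 113424634 to 113435760) lets lipid droplets fuse and grow. Cidec was at 0.276, 0 and 0 CPM in control cTECs and at 10.2, 6.05 and 14.9 CPM in HOIL-deficient cTECs. It was at 6.96, 19.8 and 15.3 CPM in control mTEChi and 26.8, 13.6 and 21.3 CPM in HOIL-deficient mTEChi, which overlapped (log2 fold change 0.52, SE 0.461, adjusted p = 0.46, edgeR).

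Plin1 (Entrez 103968, chromosome 7, 79721164 to 79732904) encodes perilipin 1, the coat protein of the droplet of mature fat cells. It was the lowest member per length in every group. All control cTEC libraries were at 0, and HOIL-deficient cTECs were at 2.96, 0 and 6.11 CPM, so that replicate 2 had no read although it held 59 reads of Cidec and 1342 of Cfd. Control mTEChi were at 0.614, 0.517 and 0.694 CPM and HOIL-deficient mTEChi at 2.56, 0.747 and 2.38. These mTEChi ranges did not overlap, but the log2 fold change of 1.56 had an SE of 1.12 and an adjusted p of 0.36 (edgeR). Plin1 passed the filter on low counts only with the cTEC libraries in the fit. It was not tested when the mTEChi libraries were fitted alone, so nothing is read from its test.

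Fabp4 (Entrez 11770, chromosome 3, 10204342 to 10208616) encodes a carrier of fatty acids in the cytoplasm. It was by far the most abundant member, at 35.1, 19.6 and 47.0 CPM in control cTECs and 158, 274 and 210 CPM in HOIL-deficient cTECs. It was at 1913, 825 and 1109 CPM in control mTEChi and 774, 1348 and 1177 CPM in HOIL-deficient mTEChi. The mTEChi groups overlapped and the difference did not pass (log2 fold change -0.32, SE 0.348, adjusted p = 0.56, edgeR). Control replicate 1, the library with the highest mitochondrial share, was also the highest for Fabp4, and without it the log2 fold change was 0.14 (adjusted p = 0.84).

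Lpl (Entrez 16956, chromosome 8, 68880555 to 68906932) encodes the lipase that frees fatty acids from lipoproteins at the vessel wall. It was the member without the pattern of the others. In cTECs it was at 176, 79.8 and 93.8 CPM in controls and 107, 97.2 and 151 CPM without HOIL, which overlapped. In mTEChi it was at 43.2, 49.9 and 51.8 CPM in controls and 83.4, 92.3 and 87.5 CPM without HOIL. These ranges did not overlap, and Lpl rose by a log2 change of 0.80 (SE 0.256, adjusted p = 0.042, edgeR). The call was lost in 9 of 13 alternatives, among them each of the 6 that left out 1 mTEChi library, with adjusted p-values up to 0.14. The log2 fold change stayed between 0.71 and 0.84 over all 13.

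Pparg (Entrez 19016, chromosome 6, 115360879 to 115490404), the master regulator of fat cell formation, was at 2.58, 0.881 and 0.620 CPM in control cTECs and 12.3, 9.02 and 9.80 CPM in HOIL-deficient cTECs. Control mTEChi were at 10.5, 12.1 and 15.4 CPM and HOIL-deficient mTEChi at 15.6, 34.4 and 15.6, above the controls in every library. The log2 change of 0.72 (SE 0.426, adjusted p = 0.26, edgeR) did not pass.

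Car3 (Entrez 12350, chromosome 3, 14863538 to 14872381) encodes carbonic anhydrase 3, abundant in fat and in slow skeletal muscle. It was at 0.368, 2.52 and 0.207 CPM in control cTECs and 64.2, 71.5 and 257 CPM in HOIL-deficient cTECs. The high value belongs to the female library, and the mean of the HOIL-deficient cTECs was 131 ± 109 CPM (SD, n = 3) with it and 67.8 CPM without it. Control mTEChi were at 17.5, 40.7 and 32.3 CPM and HOIL-deficient mTEChi at 91.4, 60.2 and 131, with no overlap. The log2 change of 1.60 (SE 0.558, adjusted p = 0.059, edgeR) just missed the threshold. It passed when only the mTEChi libraries were fitted (adjusted p = 0.0045) and with limma-voom (adjusted p = 0.043).

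**Figure D1:**
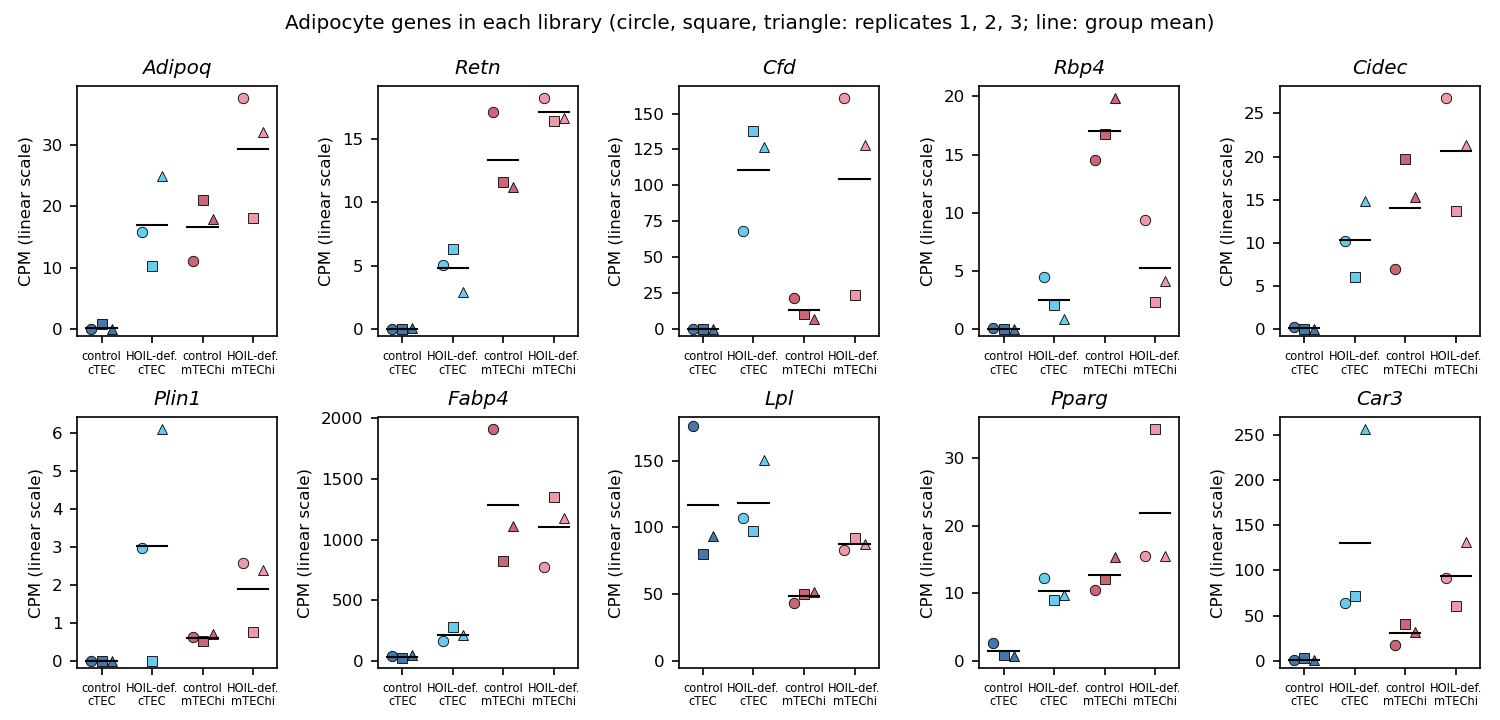
Level of each member in each library, as CPM on a linear axis that differs between panels, with circles, squares and triangles for replicates 1, 2 and 3 and a line at the group mean. In 9 of the 10 panels control cTECs have the lowest mean, and Lpl is the exception.

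Set beside each other, 8 of the 10 members were higher in every HOIL-deficient cTEC library than in any control cTEC library, the exceptions being Plin1 and Lpl. Among all 19398 tested genes, 15.9% were higher in this sense. The members were chosen on this contrast, so nothing is read from these counts. From the summed counts of the 3 libraries, the ratio of HOIL-deficient to control cTECs was 815 for Cfd (95% exact interval 318 to 2992), 162 for Car3 (110 to 248), 130 for Retn (23.0 to 5184), 103 for Cidec (35.0 to 503), 85.2 for Adipoq (38.9 to 233) and 63.4 for Rbp4 (11.0 to 2538). It was 7.11 for Pparg (5.13 to 10.1), 6.21 for Fabp4 (5.80 to 6.64) and 1.01 for Lpl (0.964 to 1.06). Plin1 was at least 32.0-fold higher, with the group at 0 read as up to 3 counts. Single libraries moved several of these ratios by over 1.5 times. For Car3 it was 505 without control replicate 2, which held 20 of its 26 control reads, and 74.6 without HOIL-deficient replicate 3. Pparg had a ratio of 13.9 without control replicate 1. Without the control library that held all their reads, the 5 genes with 6 or fewer control reads were at least 672-fold (Cfd), 123-fold (Adipoq), 63.8-fold (Cidec), 28.7-fold (Retn) and 13.1-fold (Rbp4) higher. Without another cTEC library the lowest ratios were 538 for Cfd, 80.6 for Retn, 68.1 for Cidec, 52.7 for Adipoq and 39.6 for Rbp4. Such intervals hold counting error alone, because they pool the reads of 3 libraries and leave out the spread among libraries. Without single libraries the ratio ran from 0.840 to 1.40 for Lpl and from 5.31 to 7.57 for Fabp4, beyond their intervals. Without molecular identifiers several reads can also be copies of 1 molecule, so the counting error itself may be larger.

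In mTEChi, 2 members rose (Cfd and Lpl), 1 fell (Rbp4) and 7 did not pass the test. That is 20% higher and 10% lower, where 11.3% and 8.59% of all tested genes were called higher and lower (19.9% in either direction). The median log2 fold change of the members was 0.74, against -0.03 over all tested genes. By ranges, Cfd, Plin1, Lpl, Pparg and Car3 were higher without overlap and Rbp4 lower, where 23.8% and 20.6% of all genes did not overlap in those directions. The closest libraries of Plin1 held 8 reads without HOIL and 6 with it, and those of Pparg nearly tied. These are few members, and the count of called genes moved with the analysis, from 1 to 3 higher and from 0 to 1 lower over the alternatives tried.

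**Figure D2:**
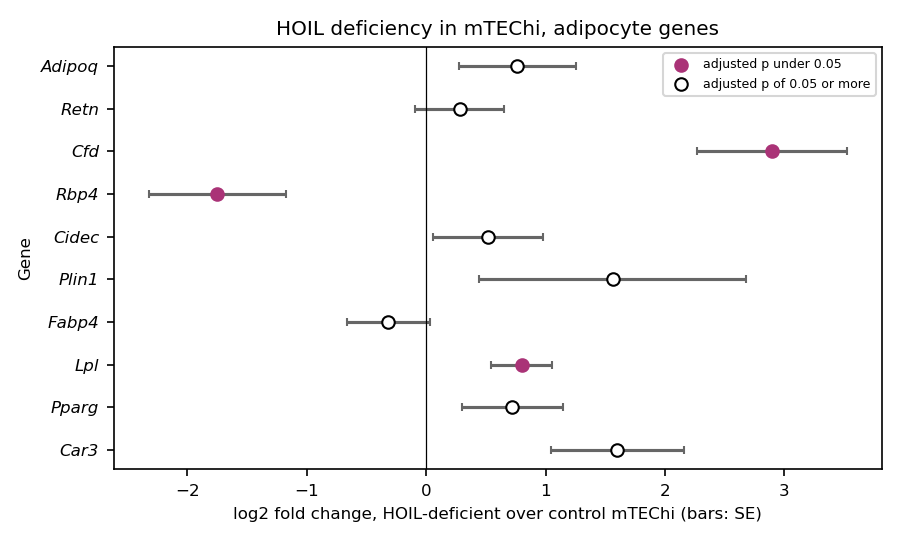
Log2 fold change of each member in HOIL-deficient over control mTEChi, with bars of 1 SE and filled points for an adjusted p under 0.05 (edgeR). Cfd and Lpl lie to the right at 2.90 and 0.80, Rbp4 to the left at -1.75, and the bars of Retn and Fabp4 reach across 0.

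In control animals the medullary cells were far above the cortical ones for all members but Lpl. The ratio of control mTEChi to control cTECs, from summed counts, was 483 for Rbp4 (95% exact interval 86.2 to 19110), 381 for Retn (68.0 to 15103), 132 for Cidec (44.9 to 644), 95.1 for Cfd (36.8 to 351), 79.0 for Adipoq (36.0 to 216), 37.1 for Fabp4 (34.8 to 39.5), 32.9 for Car3 (22.3 to 50.7) and 8.73 for Pparg (6.31 to 12.4). Plin1 was at least 5.75-fold higher in the medulla and Lpl lower there, at a ratio of 0.398 (0.373 to 0.423). Without control cTEC replicate 2 the ratio of Car3 was 103, and without control cTEC replicate 1 that of Pparg was 17.0. Without the control cTEC library that held all their reads, Adipoq, Rbp4, Retn, Cidec and Cfd were at least 114-fold, 99.6-fold, 83.9-fold, 81.8-fold and 78.4-fold higher. Without another library the lowest ratios were 319 for Rbp4, 236 for Retn, 87.3 for Cidec, 62.8 for Cfd and 48.8 for Adipoq. No test was made of this contrast, because it shares the control cTECs that chose the members. Between the HOIL-deficient groups the mTEChi to cTEC ratio was 0.923 for Cfd, 0.665 for Car3, 0.717 for Lpl and 0.575 for Plin1, and between 1.64 (Adipoq) and 5.15 (Fabp4) for the others. The direction of 3 of these ratios rested on single libraries: without HOIL-deficient cTEC replicate 3 it was 1.44 for Car3, 1.41 for Plin1 and 1.00 for Cfd, and for Cfd it was 1.02 without cTEC replicate 2 and 1.24 without mTEChi replicate 2. That of Rbp4, 2.29, was 3.67 without cTEC replicate 1 and 1.51 without mTEChi replicate 1.

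Compared per length, in TPM, counts divided by the deposited gene length and scaled to 1 common total, Fabp4 was the highest member in every group: 94.6 ± 36.5 TPM (SD, n = 3) in control and 578 ± 150 in HOIL-deficient cTECs, and 2904 ± 1131 and 2718 ± 747 in the 2 mTEChi groups. Lpl came next in control cTECs at 51.3 ± 20.4 TPM, and no other member averaged above 1.26 TPM there. In HOIL-deficient cTECs the order after Fabp4 was Cfd (208 ± 69.0 TPM), Car3 (149 ± 126), Lpl (50.8 ± 12.9), Adipoq (24.1 ± 10.8) and Cidec (10.6 ± 4.65), followed by Pparg, Retn, Rbp4 and Plin1 between 9.09 and 2.77 TPM. Cfd and Car3 did not differ beyond their spread in that order, nor did any neighbours from Cidec to Plin1. In control mTEChi, Car3, Cfd, Adipoq, Rbp4, Lpl, Retn and Cidec all averaged between 29.3 and 12.3 TPM with overlapping ranges. In HOIL-deficient mTEChi Cfd, at 178 ± 122 TPM, and Car3, at 96.9 ± 35.2, again followed Fabp4, with overlapping ranges, and Rbp4, at 6.44 ± 4.46 TPM, was next to last.

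The make-up of the adipocyte transcripts was set side by side between groups. Of the summed TPM of the 8 members other than Fabp4 and Lpl, Cfd made up 49.4, 68.2 and 39.9% in HOIL-deficient cTECs, 30.1, 12.2 and 8.93% in mTEChi with HOIL and 56.1, 21.3 and 48.2% in mTEChi without it. Rbp4 made up 14.3, 13.6 and 18.2% in control mTEChi and at most 2.32% in every HOIL-deficient library of either cell type. These shares use the cTEC values that chose the members and are descriptive.

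**Figure D3:**
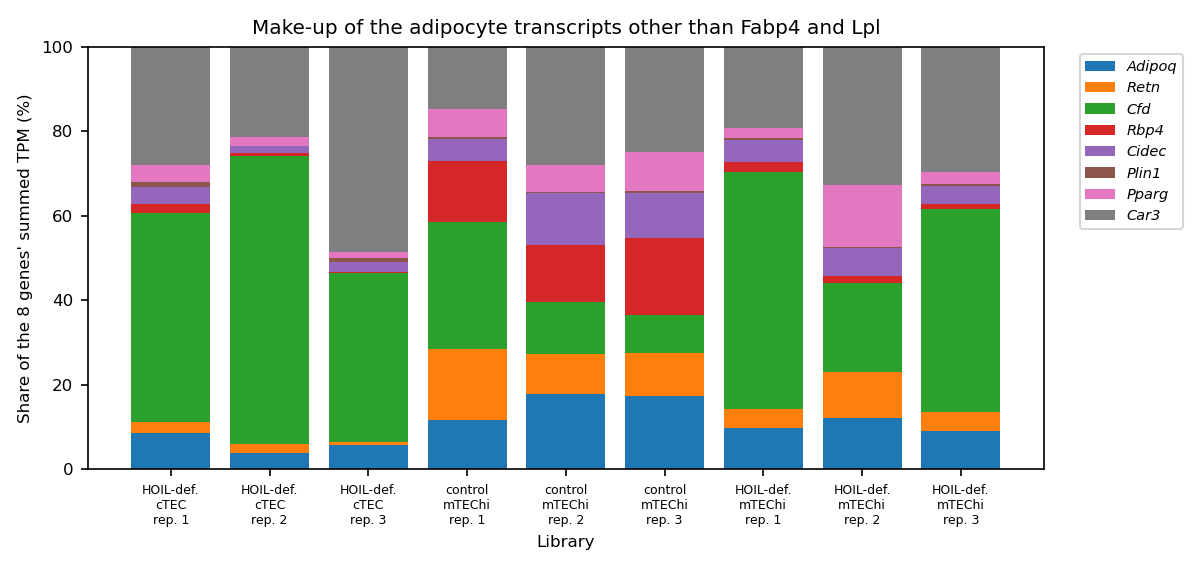
Make-up of the summed TPM of 8 members (all but Fabp4 and Lpl) in the 9 libraries outside control cTECs, as stacked percentages of each library's sum. Rbp4 takes a larger part in the 3 control mTEChi libraries, at 13.6% or more, than in any HOIL-deficient one, and Cfd takes the largest part in HOIL-deficient cTEC replicates 1 and 2, in HOIL-deficient mTEChi replicates 1 and 3 and in control mTEChi replicate 1.

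Ratios within a library do not depend on its depth. The genes Gm52871 and Gm41999 overlap Cidec and Car3 in RefSeq, so counts of these members may include reads of those genes. The ratio of Cidec to Adipoq, in TPM, stayed between 0.427 and 0.681 in all 9 libraries outside control cTECs, over cells from cortex and medulla and with or without HOIL. Its values were 0.465, 0.427 and 0.431 in HOIL-deficient cTECs, 0.452, 0.681 and 0.616 in mTEChi with HOIL and 0.515, 0.548 and 0.480 in mTEChi without it. The ratio of Cfd to Adipoq ranged far more widely, at 5.74, 17.9 and 6.79 in HOIL-deficient cTECs, 2.60, 0.677 and 0.517 in mTEChi with HOIL and 5.71, 1.74 and 5.32 in mTEChi without it. Rbp4 to Adipoq was 1.24, 0.758 and 1.05 in mTEChi with HOIL and 0.236, 0.123 and 0.122 in mTEChi without it, so these groups did not overlap. Fabp4 to Adipoq was 19.1, 51.4 and 16.2 in HOIL-deficient cTECs and 39.4 to 329 in the mTEChi libraries. Plin1 to Cidec was 0.258, 0 and 0.365 in HOIL-deficient cTECs and 0.0233 to 0.0994 in the mTEChi libraries. Over the same 9 libraries Retn to Adipoq ran from 0.113 to 1.47, Car3 to Adipoq from 1.26 to 8.25 and Plin1 to Adipoq from 0 to 0.157. Cidec to Adipoq was thus the pair that varied least among those compared.

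All 10 members together held 0.0153% ± 0.00564 (SD, n = 3) of the counts in control cTECs and 0.0622% ± 0.0178 in HOIL-deficient cTECs. They held 0.145% ± 0.0544 in control and 0.148% ± 0.0227 in HOIL-deficient mTEChi (exact permutation test, 2-sided, p = 1). Most of that was Fabp4. Without Fabp4 and Lpl, a choice made after the data were seen, the remaining 8 held 0.000292% and 0.0290% in the cTEC groups, and 0.0118% ± 0.00166 in control and 0.0294% ± 0.0109 in HOIL-deficient mTEChi. The 2-sided exact permutation p of the mTEChi difference was then 0.1, the smallest that 3 libraries against 3 can give. In these bulk samples, fewer or more cells of a type and less or more RNA per cell cannot be told apart.

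Other genes of white fat cells were taken from a list of 50, of which 49 were measured and 48 tested. This list and those below were chosen with earlier results of these data known. Their counts are therefore not independent evidence on the members. In HOIL-deficient cTECs 16 rose and 1 fell, which is 33.3% higher and 2.08% lower against 6.06% and 6.02% of all tested genes (12.1% in either direction), and the median log2 fold change was 0.55 against -0.02 over all genes. Scd1, the desaturase that makes monounsaturated fatty acids, was at 2.95, 2.77 and 1.55 CPM in control cTECs and 47.6, 28.2 and 40.0 CPM without HOIL (log2 fold change 3.89, SE 0.292, adjusted p = 9.7e-06, edgeR). Gpd1, which makes glycerol phosphate for triglyceride, had 1 read in replicates 1 and 2 and none in replicate 3 of the controls, and was at 5.09, 0.717 and 6.94 CPM without HOIL, a ratio of summed counts of 64.3 (95% exact interval 17.5 to 536, adjusted p = 0.0033, edgeR). Slc36a2, an amino acid transporter, also rose (4.31, SE 0.763, adjusted p = 0.0031), with log2 fold changes of 3.69 without control replicate 1 and 6.44 without control replicate 3, as did the imprinted gene Mest, induced when fat tissue expands (2.50, SE 0.360, adjusted p = 0.00091), and Sncg (2.19, SE 0.352, adjusted p = 0.0018, and 2.89 without control replicate 1). The exception was Fasn, the synthase that makes fatty acids anew. It was at 243, 384 and 280 CPM in control cTECs and 81.9, 66.8 and 130 CPM without HOIL, and fell by 1.79 in log2 units (SE 0.225, adjusted p = 0.00035). The calls of all 6 of these genes held in every alternative that gave a value. The other genes that rose were Acvr1c, Angptl4, Aqp7, Cd36, Mgll, Nnat, Npr3, Pck1, Rarres2, Slc2a4 and Thrsp. Of these, Acvr1c, Aqp7, Cd36, Npr3, Pck1, Rarres2, Slc2a4 and Thrsp lost the call without some single cTEC library. Leptin (Lep) was at 0 in all 6 cTEC libraries, and Cidea was at 0 in HOIL-deficient cTECs.

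In HOIL-deficient mTEChi the same list had 7 genes higher and 4 lower, 14.6% and 8.33% against 11.3% and 8.59% of all genes, with a median of 0.15 against -0.03. Mest was at 6.14, 15.7 and 14.1 CPM in controls and 61.4, 65.5 and 42.7 CPM without HOIL (2.19, SE 0.349, adjusted p = 0.0012, edgeR). Angptl4, an inhibitor of lipoprotein lipase, was at 5.43, 4.86 and 6.71 CPM in controls and 16.1, 54.1 and 24.3 CPM without HOIL (2.40, SE 0.443, adjusted p = 0.0027, and 1.78 without HOIL-deficient replicate 2). Pnpla2, the first lipase of triglyceride breakdown, rose from 118 ± 47.3 to 264 ± 45.8 CPM (SD, n = 3, adjusted p = 0.0045, edgeR). Nnat (1.63, SE 0.393, adjusted p = 0.011) and Cd36, a fatty acid receptor that endothelium and macrophages also carry (3.79, SE 0.899, adjusted p = 0.015, and 2.92 without HOIL-deficient replicate 2), rose as well. Nnat lost its call without control mTEChi replicate 3 and Cd36 without control replicate 1 or 2. Lipe, the hormone-sensitive lipase, and Thrsp were also higher, but each lost the call without some single library. Orm1, a plasma protein, was the lower gene with the smallest p, at 52.0 ± 19.7 CPM in controls and 15.4 ± 0.854 without HOIL (-1.84, SE 0.477, adjusted p = 0.016), and lost the call without control replicate 1 or any HOIL-deficient library. Acaca, Dgat1 and Tenm4, the other lower genes, lost theirs without some single library too.

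**Figure D4:**
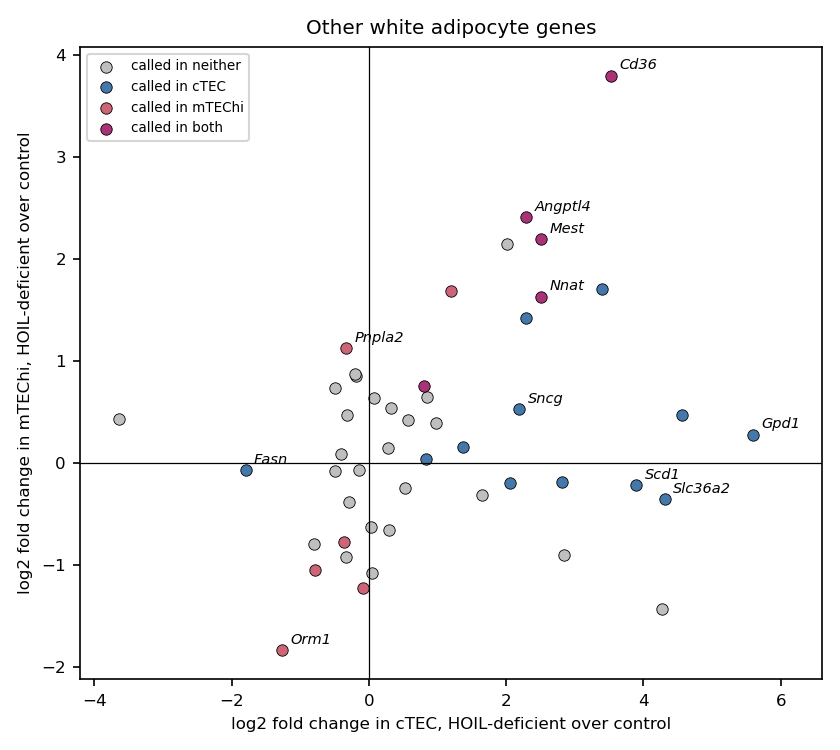
Log2 fold change of HOIL deficiency in cTECs (horizontal) and in mTEChi (vertical) for the 48 tested white adipocyte genes that are no members, 1 point per gene, coloured by whether the adjusted p was under 0.05 in either cell type. Cd36, Angptl4, Mest and Nnat lie high on both axes, while Gpd1, Slc36a2 and Scd1 lie far right at a vertical value near 0.

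The interaction test, which asks whether the HOIL effect differs between the cell types, was under the threshold for 9 of these 48 genes, 2 with a higher value in mTEChi (Fasn and Pnpla2) and 7 with a lower one (Gpd1, Mgll, Pck1, Rarres2, Scd1, Slc36a2 and Sncg). That is 4.17% and 14.6%, against 5.97% and 3.87% of all genes (9.84% in either direction).

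Transcription factors of fat cell formation did not move as a block. Of 20 tested, 4 rose in HOIL-deficient cTECs (Cebpd, Ebf1, Nr1h3 and Rxrg) and 2 fell (Srebf1 and Stat5b), with a median of -0.04. That is 20% higher and 10% lower, against 6.06% and 6.02% of all genes and a median of -0.02. Rxrg, a DNA-binding partner of PPAR-gamma, rose from 4.43 ± 0.345 to 16.6 ± 4.52 CPM (SD, n = 3, adjusted p = 0.0046, edgeR) and Cebpd from 16.9 ± 3.12 to 37.5 ± 6.75 (adjusted p = 0.0040). Srebf1, which drives Fasn, was at 290, 437 and 411 CPM in control cTECs and 129, 101 and 178 CPM without HOIL, and fell by 1.57 in log2 units (SE 0.235, adjusted p = 0.0011). Ebf1 lost its call without any single cTEC library (adjusted p up to 0.15) and with males only (0.17), Nr1h3 without control replicate 2 or 3 or HOIL-deficient replicate 3 (adjusted p up to 0.11), and Stat5b without control replicate 3 or HOIL-deficient replicate 2. In mTEChi 1 rose and 3 fell (5% and 15%, against 11.3% and 8.59% of all genes), with a median of -0.36 against -0.03. Klf15 was at 0.512, 2.69 and 1.97 CPM in control mTEChi and 7.50, 5.88 and 5.95 CPM without HOIL (1.85, SE 0.362, adjusted p = 0.0037). Cebpb fell by 1.17 (adjusted p = 0.0012), Klf4 by 1.64 (adjusted p = 0.0045) and Klf5 by 1.31 (adjusted p = 0.0049) on the log2 scale. Cebpa, the C/EBP factor of mature fat cells, averaged 13.9 and 13.3 CPM in control and HOIL-deficient cTECs and 18.1 and 7.94 CPM in control and HOIL-deficient mTEChi, and passed in neither (adjusted p = 0.92 and 0.056, edgeR).

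Receptors, partners and inhibitors of the member proteins numbered 21 tested genes. In HOIL-deficient cTECs 5 rose and 1 fell (23.8% and 4.76%, against 6.06% and 6.02% of all genes), with a median of 0.05. Cdh13, the T-cadherin that binds adiponectin, rose from 1.85 ± 0.948 to 16.1 ± 7.53 CPM (SD, n = 3, adjusted p = 0.0020, edgeR), and Stra6, the receptor that takes up retinol from RBP4, from 2.63 ± 1.61 to 11.0 ± 3.45 (adjusted p = 0.0058). Angptl4 rose as well (2.29, SE 0.421, adjusted p = 0.0038). The complement gene C3 rose, with a call lost in 7 of 13 alternatives, and the insulin receptor gene Insr fell, with a call lost in 6 of 13. In mTEChi 5 rose and 2 fell (23.8% and 9.52%, against 11.3% and 8.59% of all genes), with a median of -0.04. Stra6 was at 34.8, 75.7 and 45.7 CPM in controls and 238, 197 and 227 CPM without HOIL (2.04, SE 0.331, adjusted p = 0.0013), where its ligand gene Rbp4 was the lower member. Apoc2, the cofactor of lipoprotein lipase, fell from 233 ± 70.0 to 63.7 ± 32.0 CPM (adjusted p = 0.0044, edgeR). Lmf1, which folds the lipase, rose (0.80, SE 0.199, adjusted p = 0.013), with the call lost without HOIL-deficient replicate 1. Gpihbp1, which holds the lipase on capillary endothelium, and Cdh13 also rose, and Lrp1 fell, each with a call that was lost without most of the single libraries. The adiponectin receptors Adipor1 and Adipor2 passed in neither cell type.

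Relatives of the members from the same protein families gave 42 tested genes. In HOIL-deficient cTECs 10 rose and none fell (23.8% and 0%, against 6.06% and 6.02% of all genes), with a median of 0.79. In mTEChi 1 rose (C1qtnf6, with a call lost without any single mTEChi library) and 7 fell, with a median of -0.03, which is 2.38% higher and 16.7% lower against 11.3% and 8.59% of all genes. Fabp7, a fatty acid carrier of brain and glia that is also used as a mark of fat precursors, was at 0.368, 0.126 and 0.207 CPM in control cTECs and 4.85, 8.81 and 7.92 CPM without HOIL (4.73, SE 0.455, adjusted p = 5.6e-05, edgeR). In mTEChi it averaged 15.0 ± 3.43 CPM in controls and 28.0 ± 1.52 without HOIL (adjusted p = 0.073). The sperm gene Fabp9 (-2.74), the liver and gut gene Fabp1 (-1.84), the liver gene Cideb (-1.83) and Car8 (-3.18), a gene of cerebellar neurons, were among those that fell in HOIL-deficient mTEChi. Of these 4, Fabp1 lost its call without control replicate 1. Fabp5, the epidermal relative of Fabp4, was at 3143 ± 319 CPM in control and 3882 ± 185 in HOIL-deficient cTECs, and at 1786 ± 137 and 2236 ± 155 CPM in the corresponding mTEChi (SD, n = 3), and passed in neither comparison. Plin2, the droplet coat protein of most cell types, averaged 56.8, 76.0, 81.2 and 98.1 CPM in the same order and passed in neither.

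Brown fat genes were compared in the same way. Of 15 tested, none rose and 1 fell in cTECs (Slc27a2, with a call lost without 5 of the 6 cTEC libraries), and none was called in mTEChi by edgeR, DESeq2 or limma. At an unadjusted p under 0.05, 0, 0 and 3 of these genes passed in mTEChi with edgeR, DESeq2 and limma. The 1 lower gene in cTECs is 6.67% of the list, against 6.02% of all genes. Ucp1, the uncoupling protein that defines brown fat, was at 0 in all 6 cTEC libraries and at 3.48 to 11.0 CPM in control and 2.56 to 38.5 CPM in HOIL-deficient mTEChi.

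Of 19 fat precursor genes, 6 rose and 2 fell in HOIL-deficient cTECs and 1 rose and 1 fell in HOIL-deficient mTEChi. The shares were 31.6% higher and 10.5% lower in cTECs, against 6.06% and 6.02% of all genes, and 5.26% in each direction in mTEChi, against 11.3% and 8.59%. Those that rose in cTECs were Dcn, Fabp7, Gata2, Gpc3, Mgp and Pdgfrb, several of which mark fibroblasts and pericytes at large. In mTEChi, Ly6a, which is also an epithelial and lymphoid surface gene, fell from 731 ± 23.6 to 200 ± 25.9 CPM (SD, n = 3, adjusted p = 0.0028, edgeR), and Cd34 rose, with a call lost without control replicate 1.

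Markers of other cells moved along with the members. Of all tested genes, 6.06% were higher and 6.02% lower in HOIL-deficient cTECs, and 11.3% and 8.59% in HOIL-deficient mTEChi, and the shares of each list are to be set beside these. The endothelial list rose in 17 of 20 genes (85%) in HOIL-deficient cTECs and in 14 of 20 (70%) in HOIL-deficient mTEChi (7 and 11 genes with limma-voom), although CD31-positive cells had been sorted out. Its summed level was 53.3 to 107 CPM in control and 250 to 765 in HOIL-deficient cTECs, and 170 to 248 in control and 390 to 1153 in HOIL-deficient mTEChi. Pecam1, which encodes CD31, was at 16.4 to 26.5, 29.7 to 84.7, 7.65 to 13.7 and 34.1 to 116 CPM in the same order. The pericyte list rose in 11 of 15 genes (73.3%) in cTECs and 5 of 15 (33.3%) in mTEChi, at summed levels of 312 to 532 and 1982 to 2656 CPM in control and HOIL-deficient cTECs and 345 to 353 and 623 to 928 CPM in control and HOIL-deficient mTEChi. The fibroblast list rose in 6 of 20 (30%) and 4 of 20 genes (20%), at 945 to 3152, 4748 to 6992, 509 to 693 and 1223 to 1332 CPM. No gene of these 3 lists fell in either cell type, and Erg of the endothelial list was at 0 in control cTECs. The part of these cells in the levels of the members was not tested.

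The summed share of the 8 members other than Fabp4 and Lpl did not take the order of the endothelial sum over the HOIL-deficient libraries. Of these 8, Retn alone took the endothelial order in HOIL-deficient cTECs, and none took it in HOIL-deficient mTEChi. Among HOIL-deficient cTECs the endothelial sum was 523, 765 and 250 CPM in replicates 1 to 3, where the 8 members other than Fabp4 and Lpl held 0.0183, 0.0243 and 0.0443% of the counts. Among HOIL-deficient mTEChi it was 390, 1153 and 1019 CPM, where these 8 members held 0.0363, 0.0169 and 0.0351%. In those cTECs the fibroblast sum was 4748, 5621 and 6992 CPM, the order of the summed share of these 8 members. That share was mostly Cfd and Car3, and of the single members only Car3 took this order. In those mTEChi the fibroblast sum was 1332, 1294 and 1223 CPM, another order. The pericyte sum took another order in both (1982, 2656 and 2208 CPM in those cTECs, 835, 928 and 623 CPM in those mTEChi). Fabp4, at 158, 274 and 210 CPM in those cTECs and 774, 1348 and 1177 CPM in those mTEChi, was lowest and highest in the same mTEChi libraries as the endothelial sum, and highest in the same cTEC library. In control mTEChi, Fabp4 was at 1913, 825 and 1109 CPM with an endothelial sum of 198, 170 and 248 CPM. The macrophage sum was 816, 1292 and 1210 CPM there and 1231, 1006.5 and 981 CPM in HOIL-deficient mTEChi. The part of any of these cells in the level of Fabp4 or of the other members was not tested.

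Lists of further tissues gave a comparison for the medullary cells. The hepatocyte list, tested for 15 genes, summed to 708 to 887 CPM in control mTEChi and 483 to 711 in HOIL-deficient mTEChi, with 2 genes called lower (Alb and Apoa1) and none higher. In cTECs 2 were called higher (Cyp2e1 and Hp), the list summed to 39.1 to 104 and 46.9 to 130 CPM, and 8 of 16 genes, Alb and Apoa1 among them, were at 0 in HOIL-deficient cTECs. The skeletal muscle list had 1 of 18 genes higher (Pvalb) and 1 lower (Myh4) in HOIL-deficient cTECs, 5.56% in each direction, with a median log2 fold change of 0.63 and 8 of 18 genes at an unadjusted p under 0.05 (edgeR). Ckm of that list was at 0 there. In HOIL-deficient mTEChi 2 of 18 were higher (Actn3 and Atp2a1, 11.1%), with a median of -0.31. The macrophage list had 1 of 15 genes higher in cTECs (Lyz2) and none called in mTEChi by edgeR, DESeq2 or limma, where 0, 0 and 2 genes passed at an unadjusted p under 0.05. Its sum was 25.6 to 39.2 and 51.2 to 124 CPM in control and HOIL-deficient cTECs and 816 to 1292 and 981 to 1231 CPM in control and HOIL-deficient mTEChi. The thymocyte list went the other way in the cortex, with 15 of 18 genes (83.3%) lower in HOIL-deficient cTECs, at a sum of 1413 to 4594 CPM in control and 538 to 1076 in HOIL-deficient cTECs. Of 10 sebocyte genes, none was called in cTECs by edgeR or limma, with 1 by DESeq2 and 1 at an unadjusted p under 0.05 by edgeR, and in mTEChi Fads2 rose and Defb6 fell. Of 6 erythroid genes, Klf1 fell in cTECs and none was called in mTEChi by any of the 3 tools, with 0, 0 and 2 at an unadjusted p under 0.05 with edgeR, DESeq2 and limma. None of 18 thymocyte genes was called in mTEChi by these tools, with 1, 1 and 0 at an unadjusted p under 0.05. Of 21 genes of thymic epithelium, 4 rose (Krt14, Krt17, Krt5 and Tnfrsf11a) and 6 fell, Psmb11 among them, in HOIL-deficient cTECs. That is 19.0% and 28.6%, against 6.06% and 6.02% of all genes. In HOIL-deficient mTEChi 5 rose and 2 fell (23.8% and 9.52%, against 11.3% and 8.59%). The list summed to 43744 to 48672 CPM in control and 30798 to 33153 in HOIL-deficient cTECs, and to 14210 to 17732 and 19532 to 23104 CPM in the corresponding mTEChi. The part of each list in the members' levels was not tested.

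**Figure D5:**
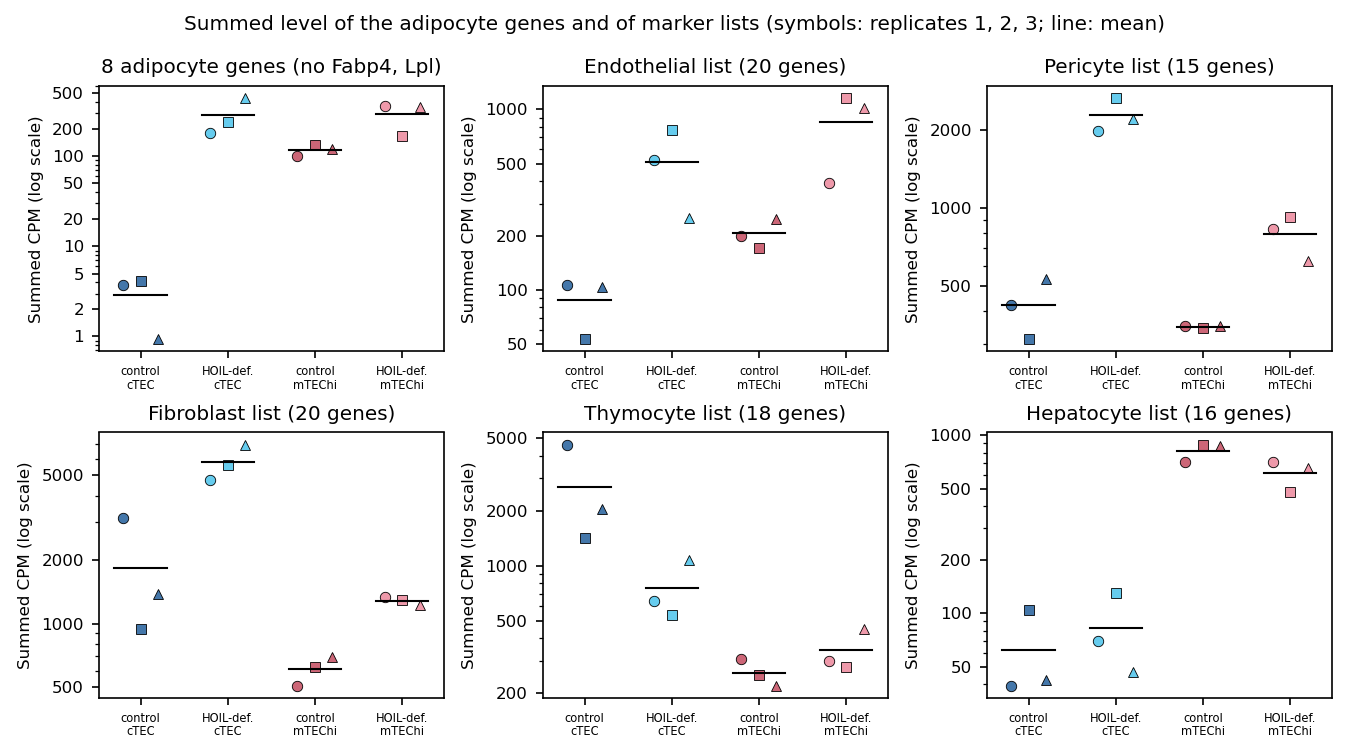
Summed CPM, on log axes that differ between panels, of the 8 members other than Fabp4 and Lpl and of 5 marker lists in each library, with symbols for replicates 1, 2 and 3 and a line at the mean. The members, the endothelial, the pericyte and the fibroblast lists are higher in HOIL-deficient than in control cTECs in every library, and the thymocyte list is lower.

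The genes whose level followed the mean log2 CPM of the 10 members most closely over the 12 libraries were Krt14 (Pearson r = 0.98), Nfil3, Scd1, Lrrtm1, Dclk1, Fabp7, Slc43a3, Ecscr, Acnat1 and Tubb4a (r = 0.95). Like the members other than Lpl, all had their lowest mean in control cTECs. Krt14, the keratin of basal epithelial cells, was at 37.1, 68.3 and 41.4 CPM in control and 398, 279 and 361 CPM in HOIL-deficient cTECs. In mTEChi it was at 270, 282 and 373 CPM with HOIL and 475, 375 and 367 CPM without. These correlations largely follow the step between control cTECs and the other libraries, share the libraries that chose the members, and have no test. Over the same libraries, each member was set against the mean of the other 9. Cidec (r = 0.99), Adipoq (r = 0.97), Retn (r = 0.94) and Pparg (r = 0.93) followed the rest most closely, Car3, Cfd, Fabp4, Rbp4 and Plin1 had r between 0.92 and 0.74, and Lpl had r = -0.36.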

How the data were processed

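RNA-seq libraries were made with SMART-Seq v4 and Nextera XT, per the labels' protocols. The authors deposited raw read counts per gene for each library, assigned with featureCounts on mm10 per the submitters' processing notes. With the aligner, the annotation, tool versions and strand use not given in the sources used here, reads of overlapping genes cannot be told apart. Symbols and positions came from RefSeq GRCm38.p6 for 25275 of 27179 genes. Counts were fitted with edgeR 4.0.16 (R 4.3.3): TMM, filterByExpr, 1 coefficient per group over all 12 libraries, robust quasi-likelihood F test, with Benjamini-Hochberg adjustment over 19398 genes and a threshold of 0.05. CPM used the library total, and TPM the deposited gene length. DESeq2 1.42.0, limma 3.58.1 (voom), RLE size factors, no count filter, the compared cell type alone, males only, a replicate block and each library left out were alternatives. Exact permutation tests used SciPy 1.17.1 and figures matplotlib 3.10.9. Fits were tested on simulated data. The members and gene lists were chosen with earlier results of these data known. Named genes were the members, up to 6 genes per list and comparison with the smallest p, the 10 most like the members' mean, and list genes at 0 throughout a group. Others named in a list's count were called genes. A gene counted in a list but withheld here is not reported by name.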

Additional observations from a re-analysis of the deposited data

Results flagged for a closer look

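For 9 white adipocyte genes that are no members, the effect of HOIL deficiency differed between the cell types in edgeR's interaction test. The values are the log2 fold change in mTEChi minus that in cTECs. Scd1 differed by -4.11 (SE 0.374, adjusted p = 0.00029), Slc36a2 by -4.67 (adjusted p = 0.0099) and Gpd1 by -5.32 (adjusted p = 0.017). Fasn differed by 1.72 (SE 0.315, adjusted p = 0.0063) and Pnpla2 by 1.46 (adjusted p = 0.014). These 5 stayed under the threshold in all 18 alternatives. Sncg differed by -1.67 (adjusted p = 0.030), Rarres2 by -2.25 (adjusted p = 0.040), Mgll by -0.81 (adjusted p = 0.043) and Pck1 by -3.00 (adjusted p = 0.046). Of the 18 alternatives, Sncg lost the call in 8, Rarres2 in 11, Mgll in 12 and Pck1 in 14. Without single control cTEC libraries the difference was -4.04 (replicate 1) and -6.79 (replicate 3) for Slc36a2, -2.36 (replicate 1) for Sncg, -2.99 (replicate 1) for Rarres2 and -4.99 (replicate 2) or -2.37 (replicate 3) for Pck1. It was -2.39 for Pck1 without HOIL-deficient cTEC replicate 3 and -5.93 for Gpd1 without HOIL-deficient mTEChi replicate 3.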

How the results depend on the processing

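The number of members called higher in mTEChi, 2 in the main analysis, was 1 with RLE size factors, with males only and with the replicate block, and 1 without any single mTEChi library. The number called lower, 1, was 0 with males only and 0 to 1 without single libraries. Other white adipocyte genes higher in cTECs numbered 10 of 40 tested when only cTEC libraries were fitted, against 16 of 48 tested. Those lower numbered 1 to 2 without single libraries. Those lower in mTEChi numbered 1 with males only and 0 to 3 without single libraries, against 4. Genes with a lower effect in mTEChi than in cTECs numbered 3 with males only and 3 to 8 without single libraries, against 7. Over all tested genes, calls in cTECs numbered 1395 with only that cell type, 1540 with males only and 1340 to 2306 without single libraries, against 2342, and in mTEChi 1944 to 3116 without single libraries, against 3858. The mTEChi difference in the members' summed share, 0.00334 percentage points, ranged from -0.0187 to 0.0338 without single libraries, and it turned negative without control replicate 2 (-0.0187) or 3 (-0.00505) or HOIL-deficient replicate 2 (-0.00306) or 3 (-0.00334). The log2 fold change of Fabp4 in mTEChi, -0.32, ranged from -0.58 to 0.14 without single libraries, the latter without control replicate 1. Leaving libraries out of the ratios of summed counts was added after the data were seen. Between the HOIL-deficient cell types the ratio of Cfd, 0.923, became 1.02 and 1.00 without cTEC replicate 2 or 3 and 1.24 without mTEChi replicate 2, and those of Car3 (0.665) and Plin1 (0.575) became 1.44 and 1.41 without cTEC replicate 3. Their ranges without single libraries were 0.727 to 1.24 for Cfd, 0.510 to 1.44 for Car3 and 0.396 to 1.41 for Plin1. The median of all genes moved by over 0.1 on the log2 scale with limma-voom in cTECs (by -0.12) and, in the difference between cell types, with RLE factors and DESeq2 (by -0.14 each) and with no count filter (by -0.12). Deviations of same-numbered libraries had r from -0.160 to 0.0980 over the pairs of groups compared. Between HOIL-deficient cTECs and mTEChi it was 0.0494, 0.0781 and 0.0348 for replicates 1 to 3. Libraries with different numbers were all lower there, from -0.0599 to 0.0189. In the other pairs of groups, same-numbered libraries were not all higher. Main fits, the interaction test among them, did not pair libraries by number. Whether same-numbered libraries share an animal was not tested. With the replicate block, 14 other white adipocyte genes were higher and 1 lower in cTECs, 8 higher and 4 lower in mTEChi, and 1797 and 3288 genes were called in cTECs and mTEChi. Causes of these changes were not tested. Fewer than 7 reads per member in all control cTECs limit the ratios of Adipoq, Cfd, Cidec, Retn, Rbp4 and Plin1.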
